A study of Papio hamadryas with 17 samples.

Results

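Intercalated cells are the acid-base cells of the connecting tubule and collecting duct. This report follows 10 genes of these cells in kidney cortex biopsies of baboons. The genes are the chloride-bicarbonate exchanger SLC4A1 of type A cells, the exchangers SLC26A4 and SLC4A9 of type B cells, 4 proton pump subunits (ATP6V1B1, ATP6V0D2, ATP6V0A4 and ATP6V1G3), the transcription factor FOXI1, and the ammonia channels RHBG and RHCG. They were chosen by name, and all 10 were found among the 10007 genes listed in both deposited tables. Of their 25 transcripts in the female table, 24 were also in the part of the male table held here. The missing transcript, variant X4 of SLC4A9, was left out in both sexes.

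The study measured RNA by stranded mRNA sequencing in biopsies taken under ultrasound guidance from 8 females aged 15 to 19 and 9 males aged 6 to 13, ages being given without a unit. Each animal gave 1 library. All animals had been fed a low-salt chow for life, received no treatment, and were sampled under ketamine and isoflurane, so no group on another diet was compared. The sexes differed in age without overlap and in the series of library names, 1 for females and 2 for males (called A and B here), so sex, age and series cannot be told apart.

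In type A cells a proton pump, a multi-subunit enzyme that uses ATP, secretes acid into the urine, while SLC4A1 returns bicarbonate to the blood across the opposite membrane. In type B cells the arrangement is turned around, with SLC26A4 (pendrin) secreting bicarbonate into the urine in exchange for chloride and SLC4A9 (AE4) in the membrane facing the blood. FOXI1 drives the formation of intercalated cells and the expression of several of these transporters. RHBG and RHCG let ammonia cross the cell membranes of the collecting duct, by which the kidney excretes acid, and they are also made by neighbouring connecting tubule and principal cells.

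Values are called signal here: the deposited value per transcript, scaled between libraries by the authors, minus its offset of 1 and summed per gene. No correction for transcript length is stated, so levels were compared between libraries and not between genes. Of the 17 libraries 3 (female 1, female 2 and male 6) were set aside by the rule that chose the genes, which leaves 6 females and 8 males. In these 3 the skeletal muscle actin ACTA1 had a signal of 51850, 81750 and 35240, against at most 9.53 in the other 14, and UMOD, the defining gene of the thick ascending limb, had 20.8, 12.3 and 938.6. In the 14 libraries UMOD was between 1669 and 11030, LRP2 (megalin, proximal tubule) between 7.98 and 294.5, AQP2 (principal cells) between 45.2 and 376.4, and PTPRC (white blood cells) between 0.632 and 2.29. Sequencing totals are not listed, but the summed signal of the 14 libraries ranged from 259197 to 440508, and relative depth, read from the spacing of low values, was 0.167 in female 6 and 0.561 to 1 in the other 13.

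All 10 genes were low in the 3 libraries set aside. SLC4A1 had a signal of 1.66, 3.79 and 9.69 there, whereas the lowest of the other 14 libraries had 84.6. FOXI1 was listed at 0 in female 1 and female 2 and had 0.587 in male 6, against at least 15.6 in the 14. SLC26A4 did not separate the 3 from the 14, since female 3 was listed at 0, and RHBG hardly did, with 2.64 in male 6 and 3.04 in female 3. SLC4A9 had at most 2.93 in the 3 and at least 8.75 in the 14. In bulk tissue, fewer cells of a type and less RNA per cell cannot be told apart.

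**Figure D1:**
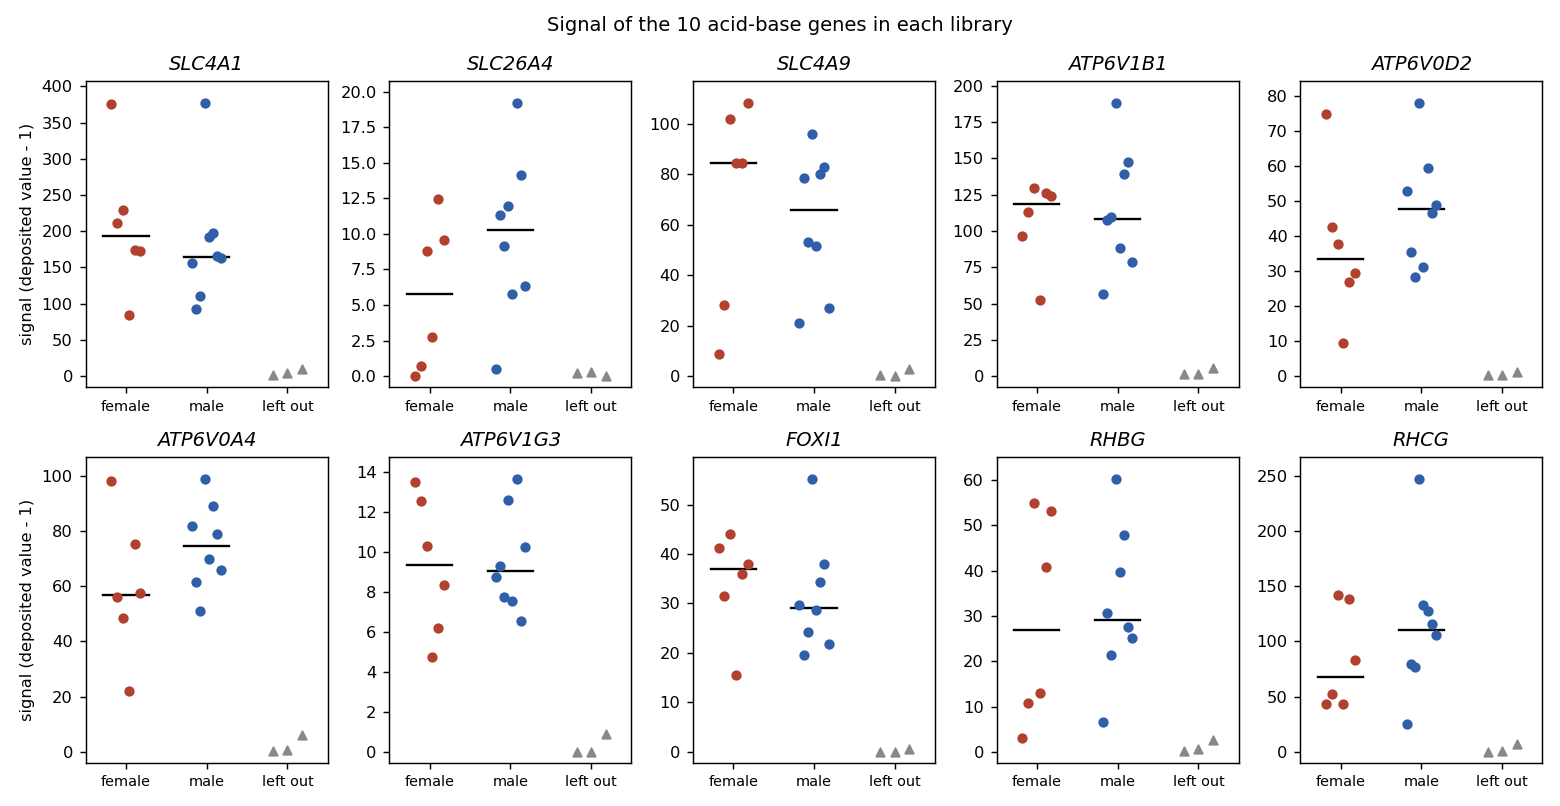
Signal of each of the 10 genes (vertical axes, linear, separate scale per gene) in 6 female and 8 male libraries, with the 3 libraries set aside shown as grey triangles. Points are libraries and bars are group medians. Female and male points overlap for every gene, and SLC26A4, SLC4A9 and RHBG have libraries near 0 among the females. Male 1 is the lowest male for the same genes, at 0.527 for SLC26A4, 20.9 for SLC4A9 and 6.57 for RHBG.

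SLC4A1, also known as AE1, lies on sequence NC_018167.2 from 51060925 to 51080864, minus strand. Its signal ranged in females from 84.6 in female 6 over a median of 193 to 376 in female 3, and in males from 93.0 in male 2 over a median of 165 to 377 in male 4. The groups overlapped over nearly their whole range, and the highest library of all 14 had 4.46 times the signal of the lowest. Female 3 and male 4, from different sexes, stood level at the top.

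SLC26A4, on NC_018154.2 from 130483765 to 130537288, plus strand, behaved differently. In females it was listed at 0 in female 3, at 0.691 in female 4, 2.76 in female 6, 8.78 in female 5, 9.56 in female 8 and 12.5 in female 7. Male 1 had 0.527, and the other 7 males had between 5.74 (male 5) and 19.2 (male 7). Female 3, female 4 and male 1 therefore had almost no pendrin signal, although the first of them was among the 2 highest libraries for SLC4A1. The 0 in female 3 allows a signal of up to 0.169, taking 3 reads as the limit and covering counting error only.

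SLC4A9, on NC_018157.2 from 134662867 to 134679320, plus strand, showed the same low libraries. Its signal in females was 8.75 in female 3 and 28.1 in female 4, and between 84.3 and 108.2 in the other 4. Among the males, male 1 had 20.9 and male 9 had 26.9, below the 51.7 to 95.8 of the remaining 6. The groups overlapped, and the spread was 12.4-fold from the lowest to the highest library.

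The balance of type A to type B was described in each library as the signal of SLC4A1 over the summed signal of SLC26A4 and SLC4A9, with 1 added to both. Its absolute size depends on transcript lengths, so only its order over libraries carries information. The ratio was 38.7 in female 3, 7.16 in female 4, 6.99 in male 1 and 4.79 in male 9. It was lowest in female 6, at 0.972, and in male 2, at 1.04. On the log2 scale the females ranged from -0.04 to 5.27 with a median of 0.94, and the males from 0.05 to 2.81 with a median of 1.35. The male range lay inside the female range, and no test was run on this score. The sum is mostly SLC4A9: with SLC26A4 alone as the type B gene the female median was the higher one, 4.54 against 3.98, so the order of the sexes depends on the gene used.

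**Figure D2:**
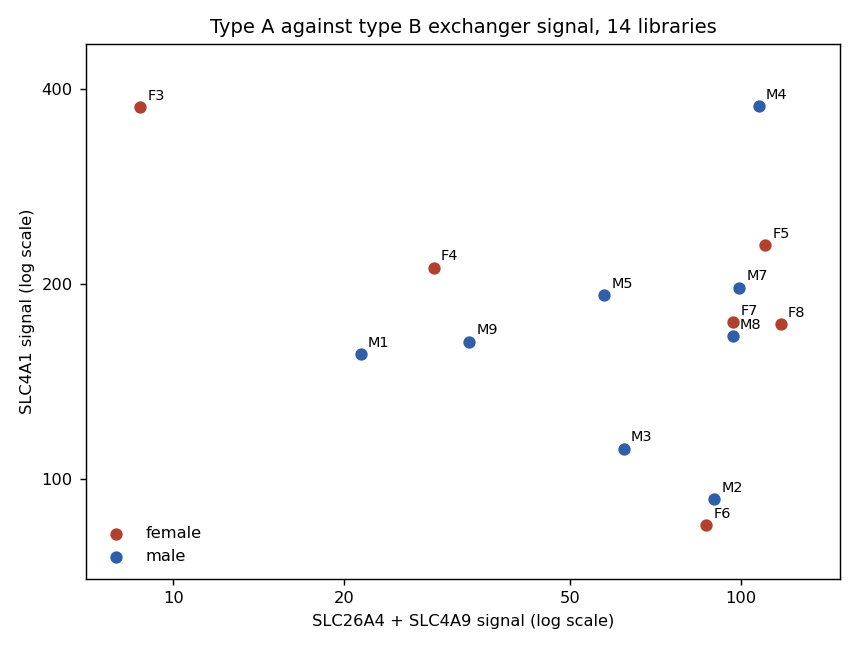
SLC4A1 signal (vertical, log scale) against the summed signal of SLC26A4 and SLC4A9 (horizontal, log scale) in 14 libraries, F for female and M for male with the animal's number. F3 has high SLC4A1 (376) and the lowest type B signal (8.75), and F4 and M1 have 28.8 and 21.4 on the horizontal axis, while F6 and M2 have the lowest SLC4A1 (84.6 and 93.0) at a type B signal of 87.1 and 89.8.

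Other genes with high type B expression and genes of the distal nephron were read in the same libraries. INSRR, a receptor tyrosine kinase of type B cells that senses alkali, had its 3 lowest signals in female 3 (2.59), male 1 (4.44) and female 4 (5.82), against a median of 23.4 over the 14 libraries. The other 2 genes of the type B list did not all follow it. OXGR1 was below its median of 2.72 in all 3 of these libraries, at 0.787, 2.30 and 1.72, but lowest in female 6 (0.636). SLC4A8 was highest of the 14 in female 3 (4.498) and, at 2.47, above its median of 1.86 in male 1. CA12, a membrane-bound carbonic anhydrase, had its 3 lowest in female 3 (29.5), female 4 (51.0) and male 1 (88.4), with a median of 217. It is 1 of 5 genes shared by intercalated cells, of which 1 was above its median in female 3, 1 in female 4 and 2 in male 1. CA2 had 59.7 in female 3, 54.1 in female 4 and 351 in male 1, the highest of the 14, with a median of 124. BSND had 7.20, 2.51 and 5.53 in the same order, with a median of 5.015. SLC12A3, the sodium chloride cotransporter of the distal convoluted tubule, was 2.54 in female 3, 20.5 in female 4 and 59.1 in male 1, with a median of 133.5. Of the 6 further type A genes, 5 were above their median over the 14 libraries in female 3, 3 in female 4 and 4 in male 1. AQP6, a water channel of type A cells, was highest in female 3 (366) and female 4 (216), whereas CLNK was lowest in female 4 (3.42) and KIT was 1.67 in male 1, with a median of 2.62.

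Markers of other segments also differed in these libraries. UMOD had its 3 highest signals in the same 3 libraries, at 11030 in female 3, 9625 in male 1 and 7368 in female 4. All 6 thick limb genes were above their median in female 3 and 5 in male 1, but 2 in female 4, where CLDN16 (12.9) and KCNJ10 (16.9) were below medians of 16.9 and 21.9. LRP2 was lowest in female 3, at 7.98, and next lowest in female 4, at 41.2, but male 1 had 176, above the median of 155. Summed over the 14 genes of the proximal tubule list, the signal was 884.7 in female 3, 2282 in female 4 and 4064 in male 1, with group ranges of 884.7 to 4248 in females and 4064 to 8811 in males. The 4 connecting and distal tubule genes in both tables summed to 136.9, 143.7 and 268.1 in these libraries, with ranges of 85.0 to 515 for females and 268 to 935 for males. The 6 thick limb genes summed to 1798 to 11510 in females and 2817 to 10140 in males. Of 12 principal cell genes, 10 were above their median in female 3, 6 in female 4 and 7 in male 1. AQP2 was 376 in female 3, the highest of the 14, 242 in female 4 and 202 in male 1, with a median of 219.7. No gene of the thick limb, proximal tubule and connecting and distal lists was at 0 in female 4 or male 1. In female 3 the proximal tubule gene SLC5A2 was listed at 0. The part of tissue composition in the type B values was not tested.

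**Figure D3:**
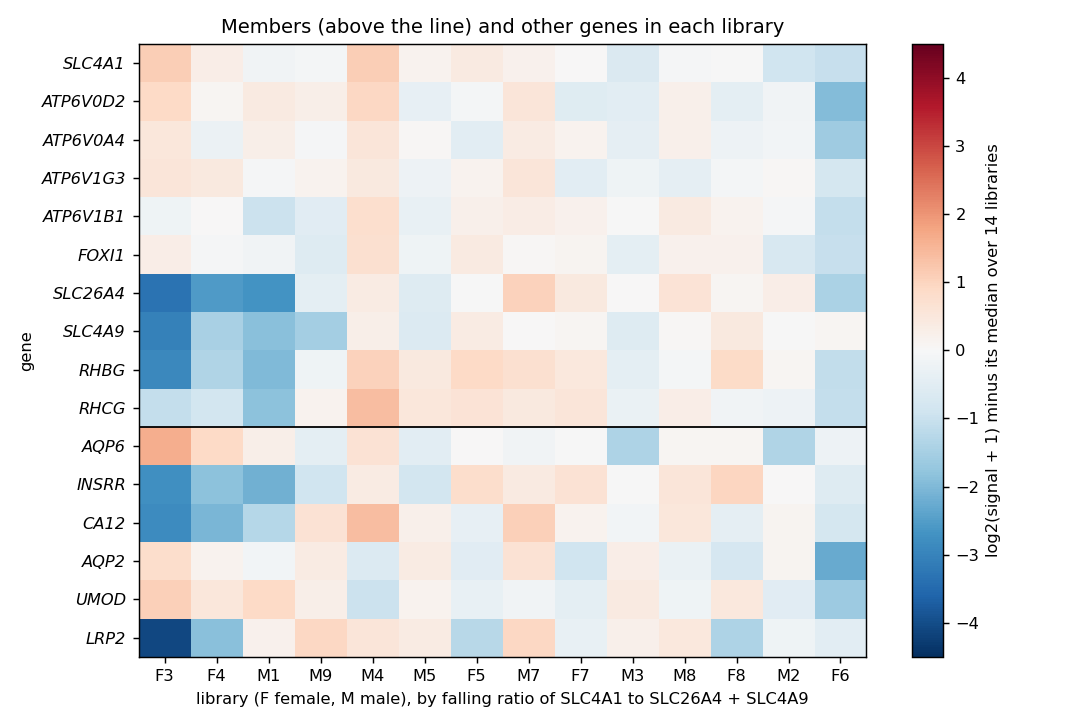
Each cell is log2(signal + 1) of a gene (rows) in a library (columns) minus that gene's median over the 14 libraries, with columns ordered by falling type A to type B ratio. In F3, F4 and M1 at the left, SLC26A4, SLC4A9, RHBG, INSRR and CA12 are below their medians, while ATP6V0D2 and UMOD are above theirs.

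The proton pump consists of a catalytic V1 sector and a membrane V0 sector, and the 4 subunits here are the forms typical of intercalated cells. ATP6V1B1, the B1 subunit of V1, is a gene whose loss causes distal renal tubular acidosis with deafness. It lies on NC_018164.2 from 70206796 to 70235155, plus strand. Its signal was 52.2 in female 6 and between 96.8 and 129 in the other females, with a median of 119, and in males it ranged from 56.5 in male 1 over a median of 108 to 188 in male 4. Apart from female 6, the female values lay within the male range.

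ATP6V0A4, the a4 subunit of V0 and likewise a gene of distal renal tubular acidosis, lies on NC_018154.2 from 161285508 to 161376526, minus strand. It is also made in proximal tubule. Its signal ranged in females from 21.9 over a median of 56.8 to 98.1, and in males from 50.9 over a median of 74.4 to 98.9. Female 6 was again the lowest, and female 3 and male 4 were again the highest of their groups.

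ATP6V0D2, the d2 subunit of V0, on NC_018159.2 from 82063963 to 82124143, plus strand, ran from 9.54 over 33.5 to 75.0 in females and from 28.2 over 47.7 to 78.0 in males. ATP6V1G3, the G3 subunit of V1, on NC_018152.2 from 162160024 to 162186889, plus strand, ran from 4.77 over 9.34 to 13.5 in females and from 6.55 over 9.03 to 13.7 in males. For both genes female 3 was the highest female, in which SLC26A4 was listed at 0. FOXI1, on NC_018157.2 from 164426897 to 164433188, plus strand, ran from 15.6 over 37.0 to 44.0 in females and from 19.6 over 29.2 to 55.2 in males. Its signal was 41.2 in female 3, 31.6 in female 4 and 29.7 in male 1, against a median of 33.0 over the 14 libraries, so it was not at the low end in any of them.

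RHBG, the ammonia channel of the blood-facing membrane, lies on NC_018152.2 from 126803092 to 126819969, plus strand. Its signal was 3.04 in female 3, 6.57 in male 1 and 10.8 in female 4, its 3 lowest values, and reached 55.0 in female 5 and 60.3 in male 4. Its 19.9-fold spread over the 14 libraries compares with 4.46-fold for SLC4A1. RHCG, found in the urine-facing membrane and also in the blood-facing one, lies on NC_018158.2 from 64167232 to 64208623, minus strand. Its signal ranged in females from 43.6 over a median of 67.7 to 142 and in males from 25.3 in male 1 over a median of 111 to 247 in male 4. Female 6 and female 3 were nearly level at the low end of the females, at 43.6 and 43.7, where female 6 was low in the pump subunits and female 3 was not.

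How the genes varied together was described by Pearson's r of log2(signal + 1) over the 14 libraries after each sex's mean was subtracted. These libraries share their depth and tissue makeup in every pair, so no p is given. SLC4A1 correlated with the pump subunits at r from 0.53 (ATP6V1B1) to 0.87 (ATP6V0D2) and with FOXI1 at 0.87 (0.866). With SLC26A4 and SLC4A9 it had r of -0.15 and -0.30. The latter 2 correlated with each other at 0.89 (0.885), and with RHBG at 0.91 and 0.87. Without the 2 libraries farthest from the median of SLC4A1, r fell to 0.0452 for ATP6V1B1 and was 0.80 for ATP6V0D2 and 0.69 for FOXI1. In the same check SLC4A1 had r of -0.36 with SLC26A4 and -0.49 with SLC4A9. Spearman's rho of these 2 pairs over all 14 libraries was -0.055 and -0.081. Without the 2 farthest for SLC26A4, its r was 0.78 with SLC4A9 and 0.79 with RHBG. Of the 45 pairs 11 were negative, and ATP6V1B1 was the pump subunit that correlated positively with both type B genes, at 0.62 and 0.45 (0.445).

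The 3 genes outside the set with the most similar pattern were sought for each member among all tested genes, by the same sex-centred r over 14 libraries. For SLC4A1 they were DMRT2 (r = 0.95), CORO2B (0.91) and CYTH1 (0.90). For SLC26A4 they included INSRR (0.97) and NPTX1 (0.95), and for SLC4A9 they were SSTR3 (0.98), PODXL (0.94) and INSRR (0.94). PODXL encodes podocalyxin of glomerular podocytes. RHBG had SALL3 (0.97), TMEM52B (0.94) and PTPRO (0.93), and RHCG had SLC7A8 (0.89), SALL3 (0.89) and ATP6V1C2 (0.87).

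Among the pump subunits, ATP6V1B1 was most like AZGP1 (0.92), PCDHB14 (0.92) and TNS4 (0.90), ATP6V0D2 like MINDY1 (0.95), CORO2B (0.95) and MAL2 (0.93), ATP6V0A4 like TMEM213 (0.95), CLDN8 (0.94) and CFAP69 (0.94), and ATP6V1G3 like PRMT6 (0.90), LOC103875652 (0.90) and KSR1 (0.89). FOXI1 had EML2 (0.93), BSND (0.92) and MON1B (0.89). These are the highest values out of all tested genes and are given as a description. CORO2B was shared by SLC4A1 and ATP6V0D2, INSRR by both type B exchangers, and SALL3 by both ammonia channels.

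The comparison of the sexes is the study's own question. None of the 10 genes differed between 6 females and 8 males in limma, a linear model fitted to log2(signal + 1) of all genes: 0 passed a Benjamini-Hochberg adjusted p of 0.05, and 0 had an unadjusted p under 0.05. Over all 9709 tested genes 37.7% passed: 2.2% had the higher signal in females and 35.5% in males. The median difference, female minus male, was -0.35. The 10 genes had a median difference of -0.23. Of them 2 were above 0 and 8 below, but relative to the median of all genes 5 were above it (SLC4A1, FOXI1, SLC4A9, ATP6V1B1 and ATP6V1G3) and 5 below.

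Mean SLC4A1 signal was 208 ± 96.1 for females (SD, n = 6) and 182 ± 86.7 for males (SD, n = 8), and the fitted log2 difference was 0.18 (95% interval -0.48 to 0.84, limma adjusted p = 0.683). For SLC26A4 the means were 5.71 ± 5.22 (SD, n = 6) and 9.79 ± 5.72 (SD, n = 8), and the difference was -0.96 (95% interval -2.28 to 0.36, limma adjusted p = 0.241). For SLC4A9 the difference was -0.06 (-1.13 to 1.02, limma adjusted p = 0.942), and for RHBG -0.46 (-1.66 to 0.73, limma adjusted p = 0.546). These intervals are wide: that of SLC4A9 reaches past 1 in size, a doubling, in both directions, and those of SLC26A4 and RHBG do so toward males. For ATP6V1G3 and FOXI1 the intervals were narrower, at -0.54 to 0.38 and -0.39 to 0.64. ATP6V0D2 (-0.52), ATP6V0A4 (-0.42) and RHCG (-0.39) had limma adjusted p of 0.247, 0.205 and 0.483. The intervals of ATP6V0D2 (-1.24 to 0.20) and RHCG (-1.26 to 0.48) also reached past a doubling toward males.

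The result was the same when the 6 females were compared with the males of 1 library series at a time. The females form a series of their own, so sex and series still cannot be told apart in these fits. Against the 5 males of series A 0 of the 10 genes passed, where 20.4% of all genes did (0.706% toward females, 19.7% toward males). Against the 3 males of series B 0 passed, where 32.3% of all genes did (1.34% toward females, 31% toward males). The log2 difference of SLC26A4 was -0.62 against series A and -1.52 against series B, with limma adjusted p of 0.593 and 0.168. A fit that included age called 0 of the 10 and 1 gene of all those tested (0.0103%). In all 17 libraries 0 of the 10 passed, against 13.1% of all genes (0.387% toward females, 12.7% toward males). After libraries were scaled to a common median 0 of the 10 passed, against 29.1% of all genes (14.3% toward females, 14.8% toward males), and SLC4A1 (0.63) and FOXI1 (0.57) had limma adjusted p of 0.103 and 0.0763. Leaving out 1 library at a time, 0 passed in each of the 14 fits. The mitochondrial share of the signal was 27.6% to 51.0% in the 6 females and 22.5% to 36.0% in the 8 males, and its part in these comparisons was not tested.

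Genes related to these functions were taken from lists, chosen with earlier results of these data known. Of 6 further genes with high expression in type A cells 0 passed, and the 2 with the highest mean signal were AQP6 and SLC26A7, an anion exchanger. SLC26A7 had a log2 difference of -1.03 (limma adjusted p = 0.0642). AQP6 had 99.6 to 366 in females and 44.1 to 182 in males, a log2 difference of 0.75 (limma adjusted p = 0.0985). After libraries were scaled to a common median the difference of AQP6 was 1.21 and passed (limma adjusted p = 0.0105). Of 3 further type B genes 0 passed, and INSRR (-0.14) and OXGR1 (-0.61), a receptor for oxoglutarate, had limma adjusted p of 0.870 and 0.198.

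Of 5 tested genes shared by intercalated cells 2 passed, both higher in males, where 35.5% of all genes did so. After median scaling 1 was higher in males, CA2, and 1 higher in females, TFCP2L1 (0.57, limma adjusted p = 0.0194), a transcription factor of intercalated cells. CA2, the cytosolic carbonic anhydrase that supplies both protons and bicarbonate in these cells and in proximal tubule, had a signal of 34.3 to 90.6 in the females and 89.1 to 351 in the males, with 1 female above the lowest male. Its log2 difference was -1.80 (SE 0.27, limma adjusted p = 0.000181). CA12 had 29.5 to 242 in females and 88.4 to 573 in males, a log2 difference of -1.37 (limma adjusted p = 0.0268), which did not pass after median scaling (-0.92, limma adjusted p = 0.169). The proximal tubule list moved the same way: all 14 of its genes were higher in males, 9 of them also after median scaling, with the summed signals given above. Its part in the CA2 difference was not tested.

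The widely expressed subunits of the proton pump differed from the 4 intercalated forms in their counts. Of 17 such genes, which serve lysosomes and other acidic compartments in most cells, 12 were higher in males, against 35.5% of all genes, and 0 higher in females, with a median log2 difference of -0.64 against -0.35 for all genes. ATP6V1A, the catalytic A subunit, had a signal of 17.5 to 42.1 in females and 52.2 to 129 in males, with no overlap, and a fitted difference of -1.30 (SE 0.21, limma adjusted p = 0.000299). ATP6V1B2, the widespread counterpart of ATP6V1B1, had 24.3 to 99.5 and 85.9 to 180, and likewise -1.30 (SE 0.26, limma adjusted p = 0.00117). The same measure was -0.07 (SE 0.26) for ATP6V1B1. For the G subunit it was -0.91 for widespread ATP6V1G1 and -0.08 for ATP6V1G3. For the a subunit it was -0.83 (ATP6V0A1) and -0.91 (ATP6V0A2), against -0.42 for ATP6V0A4. The d subunit had the other order, with -0.41 for widespread ATP6V0D1 (limma adjusted p = 0.0481) and -0.52 for ATP6V0D2.

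ATP6V1C1, ATP6V1G1, ATP6V1D and ATP6V0A1 were also higher in males, with log2 differences of -1.12, -0.91, -0.60 and -0.83. The first 3 of these showed no overlap between the sexes, as did 11.9% of all tested genes. With libraries scaled to a common median, 5 of the 17 were higher in males, against 14.8% of all genes, and 1, ATP6V0B, was higher in females, against 14.3%, so the number depends on the scaling. ATP6V1A and ATP6V1B2 were among the 5, with -0.85 and -0.84. In the fit with age 0 of the 17 passed, against 0.0103% of all genes. The ages of the sexes do not overlap, so this count does not set the 17 apart from other genes. Whether the widespread and the intercalated forms differ from each other in their sex difference was not tested.

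**Figure D4:**
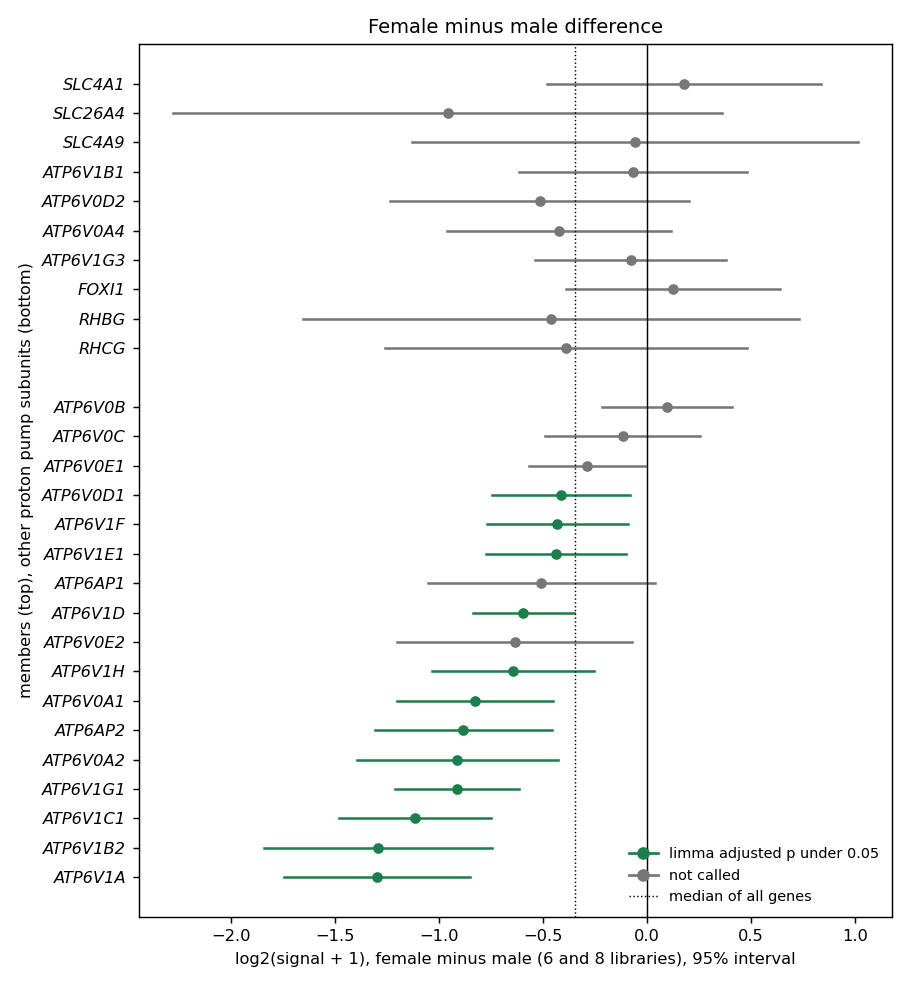
Log2(signal + 1) of females minus males with its 95% interval for the 10 genes (top) and 17 widely expressed pump subunits (bottom), in 6 and 8 libraries; green marks a limma adjusted p under 0.05 and the dotted line is the median of all genes at -0.35. All 10 intervals at the top include 0, and 12 of the 17 at the bottom are green and left of 0.

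Ammonia made in the proximal tubule is what RHBG and RHCG pass on. PCK1, a gene of glucose formation that rises with ammonia production, and GLUL, which uses ammonia to make glutamine, were chosen after their values were seen. PCK1 (-1.48, limma adjusted p = 0.0617) and GLUL (-0.11, limma adjusted p = 0.566) did not pass. PCK1 had a signal of 15.3 in female 3, next to 176.5 to 538 in the other 5 females.

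SLC4A1 is also the anion exchanger of red blood cells, so its signal was set against red cell genes. Of 13 such genes, 5 were in both tables: HBA1, HBB, ALAS2, ANK1 and SLC25A37. Of these 3 were higher in males (HBA1, ALAS2 and ANK1) and 1, SLC25A37, higher in females, against 35.5% and 2.2% of all genes. After median scaling 0 were higher in males and 1 higher in females. HBB had 22.1 to 233 among the females and 42.7 to 407 among the males. Over the 14 libraries SLC4A1 and the summed red cell signal had Pearson's r = 0.208 (two-sided permutation p = 0.477) and Spearman's rho = 0.156 (permutation p = 0.598). Without the 2 libraries farthest in red cell signal r was 0.216. Within females r was 0.0997 (permutation p = 0.842) and within males 0.557 (permutation p = 0.159), with adjusted p over the 3 relations of 0.715, 0.842 and 0.478. Without the 2 farthest males r was 0.85. Spearman's rho was 0.257 within females (permutation p = 0.658) and 0.714 within males (permutation p = 0.0576). The values over the 14 libraries were taken without subtracting the sex means.

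The transcripts of SLC4A1 bear on the same point. In red cells the gene is read from its first exon, and in type A intercalated cells from an internal start, which gives a protein lacking the first stretch of the red cell form. The tables list variants X1 and X2, which begin at the upstream end of the gene at 51080864, and variant X3, which begins 6031 bases further in, at 51074833. Whether X3 is the kidney form was not examined by sequence. X3 held 89.7% to 93.8% of the SLC4A1 signal in the 6 females and 93.9% to 96.3% in the 8 males. It was the main transcript in all 14 libraries.

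The summed share of X1 and X2 was 6.17% to 10.3% in females, with a median of 8.56%, and 3.71% to 6.12% in males, with a median of 4.80%. The sexes did not overlap, though the nearest libraries, female 7 and male 8, lay 6.17% against 6.12%. Among 4748 transcripts of well-measured genes with several transcripts, 2.27% had shares without overlap between the sexes, and of 9 such transcripts of the present genes 2 did, both of SLC4A1. These 2, X2 and X3, are not separate observations, because the shares of a gene's transcripts add up to the whole. The 9 are transcripts of SLC4A1, ATP6V0A4 and RHCG only. In signal, X1 and X2 together had 8.74 to 32.0 in females and 4.35 to 15.7 in males, and X3 had 75.9 to 344 and 88.7 to 361. The split of reads between transcripts that share exons is an estimate, and no test was run on it.

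ATP6V0A4 also has transcripts with different upstream ends. Variant X1, which begins 23401 bases inside the start of X2, held 16.4% to 46.4% of the signal in females, with a median of 39.7%, and 39.0% to 74.7% in males, with a median of 55.1%. The groups overlapped. Female 6 had the lowest share and male 4 the highest.

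**Figure D5:**
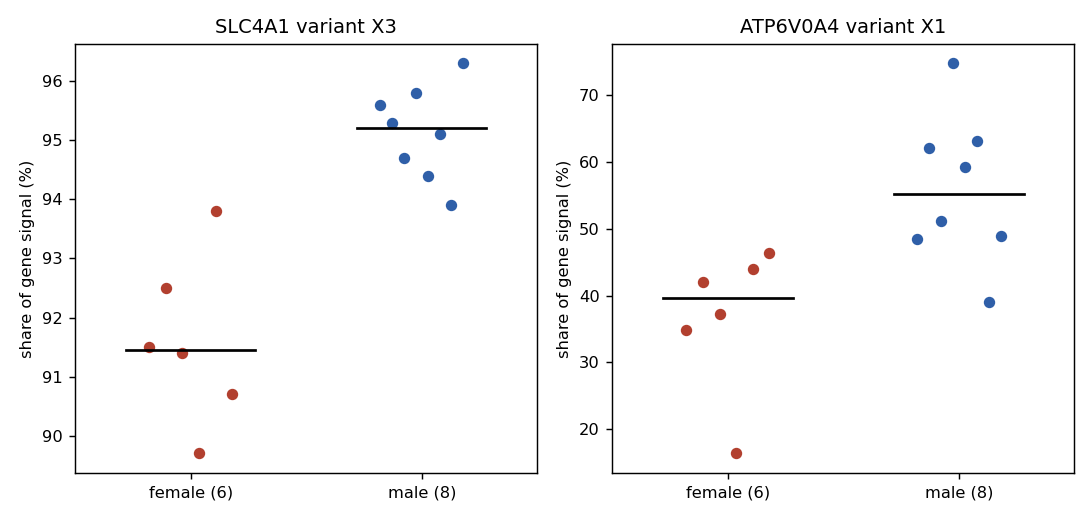
Share of the gene's signal (percent, axes not starting at 0) held by SLC4A1 variant X3 (left) and ATP6V0A4 variant X1 (right) in 6 female and 8 male libraries; points are libraries and bars are medians. For SLC4A1 the male points (93.9% to 96.3%) lie above the female points (89.7% to 93.8%), and for ATP6V0A4 the groups overlap.

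Of the other members with several transcripts, ATP6V0D2 and RHCG had 1 main form. In ATP6V0D2, variant X1 held 81.2% to 100% over the 14 libraries, and in RHCG variant X1 held 76.1% to 92.8%. ATP6V1G3 was split between X2 (54.2% to 94.7%) and X1. SLC4A9 was spread over 7 transcripts, of which X17 had the highest median share, 28.8%, and X18 ranged from 0.798% in female 3 to 47.3% in female 6.

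The co-expression modules in the authors' deposited tables can be read for these transcripts. In the authors' deposited table of females, 10 of the 25 transcripts were in the tan module, which held 12.2% of all transcripts, and 9 were in the light yellow module, which held 3.52%. All 3 SLC4A1 transcripts, FOXI1, all 3 of ATP6V0A4 and both of ATP6V0D2 were tan. SLC26A4, RHBG, ATP6V1B1, the main RHCG transcript and 5 of the 8 SLC4A9 transcripts were light yellow. In the authors' deposited table of males 9 of the 24 transcripts were in the black module, with 13.9% of the transcripts held here, and 8 in the blue one, with 17.7%. There the main SLC4A1 transcript, FOXI1, RHBG and ATP6V1B1 were black, and SLC26A4 and the main transcripts of ATP6V0D2 and ATP6V0A4 were blue. Module colours are labels within a table and were not matched between the sexes. The deposited tables also hold the 3 libraries set aside here, so the modules may rest on more than the 14 libraries.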

How the data were processed

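For each sex the authors deposited a table listing transcripts in rows, with a signal per library scaled between libraries and an offset of 1, the lowest value, per the file headers and values. Partek is named in the submitters' processing notes. The aligner, genome build and scaling method: not given in the sources used here. The male table was held in part (17119 transcripts, 64.3% of the 26644 in the female table), and the rest was not analysed here.

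The offset was removed and transcripts were added up per gene. A gene entered the test if its signal reached 1 in 6 or more libraries. limma 3.58.1 (R 4.3.3) was fitted to log2(signal + 1), using its trend option, and p-values were adjusted by Benjamini-Hochberg over all tested genes, with a threshold of 0.05. This scale understates changes of low genes. The fit was checked on simulated data. In each library 46.7% to 68.5% of low values were whole multiples of a step (tolerance 0.1 of a step). Reads could therefore not be recovered, and count models were not used; the step served as relative depth. Correlation tests used 100000 permutations, or all of them where fewer exist (scipy 1.17.1, Python 3.11.15).

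The members, the lists and the 14 libraries were chosen with earlier results of these data known. Named genes are the 10 members, the 3 most similar genes of each, genes of the related lists that passed (at most 6 each, otherwise the 2 of highest mean signal) and defining genes of other cells; SLC12A3, SLC5A2, PCK1, GLUL, CLNK, KIT, SLC4A8, TFCP2L1, CLDN16, KCNJ10 and the red cell genes beside HBB were named after their values were seen. Age, name series, scaling, pseudocount, filter, trend and left-out libraries were varied. Each library is a separate animal. Some genes that these rules name are not reported here.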

Additional observations from a re-analysis of the deposited data

Results flagged for a closer look

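The extreme library of each sex was set against its neighbour for the 10 genes and the type A to type B ratio, 22 sets of values on the log2(signal + 1) scale, of which chance flags about 5%. Of these 3 stood apart. SLC26A4 in male 1 was 0.611, next to 2.75 in the second lowest male. ATP6V1B1 in female 6 was 5.73, next to 6.61, and FOXI1 in female 6 was 4.05, next to 5.03.

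Variant X4 of SLC4A9 was left out of the comparisons because it was in the female table alone. Its signal exceeded the 3-read limit of each of the 6 females: 0.957 in female 3, 1.21 in female 4, 6.89 in female 5, 0.955 in female 6 (limit 0.954), 3.15 in female 7 and 5.41 in female 8.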

How the results depend on the processing

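No member passed under any of the 25 alternatives; the lowest limma adjusted p was 0.0567, for ATP6V0A4 without female 3. The direction held in 219 of 249 member results and turned in 30, none of them past the threshold, and the cause was not tested. With age as a term the log2 difference, female minus male, was -0.24 for SLC4A1, 1.32 for SLC26A4, 1.48 for SLC4A9, 0.69 for ATP6V1B1 and 0.53 for RHBG. With median scaling it was 0.39 for SLC4A9, 0.39 for ATP6V1B1, 0.027 for ATP6V0A4, 0.33 for ATP6V1G3 and 0.064 for RHCG, and with upper quartile scaling 0.38, 0.37, 0.014, 0.32 and 0.052. In all 17 libraries it was -0.81 for SLC4A1 and -0.67 for FOXI1, and against series A 0.0059 for ATP6V1B1. Leaving out 1 library at a time gave -0.018 to 0.41 for SLC4A1, -0.26 to 0.43 for SLC4A9, -0.20 to 0.12 for ATP6V1B1, -0.19 to 0.072 for ATP6V1G3 and -0.75 to 0.014 for RHBG. With SLC26A4 alone as the type B gene, the median log2 ratio of females minus that of males was 0.56 in place of -0.41. Without female 3, SLC4A1, SLC4A9 and RHBG turned direction.

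The number of genes called over the whole table, 3658, was 2213 with a filter minimum of 10, 1290 in all 17 libraries, 1 with age as a term and 1908 against series A, and 3105 to 4029 with 1 library left out. Median scaling gave 1386 genes toward females and 1438 toward males, in place of 214 and 3444, and moved the median of all genes from -0.35 to 0.03. In all 17 libraries r of SLC4A1 with the red cell genes was -0.569, but this says nothing of red cells: in the 3 muscle-rich libraries ANK1, also a muscle gene, had 549.4, 689.2 and 405.8 of that sum, against at most 4.34 in the 14, and SLC4A1 was near 0. No paired analysis was possible because replicate numbers were assigned in listing order and pair no animals. Depth limits SLC26A4, whose signal of 0.691, 0.527 and 2.76 in female 4, male 1 and female 6 stands on few reads.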
